A study of Mus musculus and Sus scrofa with 18 samples.

Results

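The acetylcholine system of the mouse striatum was followed through 9 genes, the 5 muscarinic acetylcholine receptor genes Chrm1 to Chrm5 and the 4 cholinergic marker genes Chat, Slc18a3, Slc5a7 and Ache. They were selected by symbol from the 55357 Ensembl genes of the mouse count table, by a rule that used no measured value, though with earlier results of these data known. All 9 were among the 19463 genes that passed the filter on low counts and were tested. Chrm5, with 1 to 13 counts in each HD library, lay near the limit of that filter.

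RNA was sequenced from the striatum of 3 WT mice, 3 untreated HD mice and 3 treated HD mice. WT mice received AAV9 with a control guide RNA (Ctrl gRNA) and no CasRx, an RNA-cutting CRISPR enzyme. Untreated HD mice received AAV9-CasRx with the Ctrl gRNA, and treated HD mice received AAV9-CasRx with gRNAs against HTT. CasRx was driven by the CAG promoter, which is active in most cell types. Both HD groups were heterozygous HD 140Q-KI animals, whose own Htt gene holds an expanded CAG repeat within human HTT exon 1, and which were bred with C57BL/6J mice. Every mouse was injected on both sides of the striatum when 6 months old and was killed after a further 1.5 months. Because only the HD groups received CasRx, effects of the allele and of CasRx itself cannot be told apart in a comparison with WT. Whether a library held 1 mouse or a pool is not stated in the sources used here, so P-values measure only the spread between these libraries, which are called mice below.

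Acetylcholine in the striatum comes mainly from a sparse population of large interneurons that fire tonically. Chat makes the transmitter, Slc18a3 (the vesicular acetylcholine transporter) loads it into vesicles, Ache breaks it down in the extracellular space and Slc5a7 (the high-affinity choline transporter) returns the choline to the terminal. Of the muscarinic receptors, Chrm1, Chrm3 and Chrm5 couple to Gq proteins and raise cell calcium, whereas Chrm2 and Chrm4 couple to Gi proteins and lower cyclic AMP. Chrm1 is abundant in projection neurons of both striatal output pathways, Chrm4 is enriched in those of the direct pathway, and Chrm2 and Chrm4 also act as autoreceptors on cholinergic neurons.

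Total counts ranged from 27184356 to 32102121 per library. Levels are given as CPM, counts divided by a library size scaled with edgeR's TMM factors and brought to a common total. Htt, the targeted gene, was counted at 182 to 191 CPM in WT, 140 to 150 CPM in untreated and 130 to 140 CPM in treated mice, and its log2 fold change between treated and untreated mice was −0.10 (adjusted p = 0.942). Counts of the knock-in allele and of the mouse allele are not separated in this value. The Htt counts thus did not set the treated libraries apart from the untreated ones beyond their spread. In edgeR's test Htt was lower in both HD groups than in WT. Its log2 fold change was −0.37 in untreated mice (adjusted p = 0.00656) and −0.46 in treated mice (adjusted p = 0.00425). For treated against untreated mice, the paper reports less mutant HTT mRNA by RT-qPCR and less mutant protein by Western blot. The Htt counts do not separate the alleles, so a reduction of the mutant allele would enter them only as part of the total. Counts of 4 Y-linked genes summed to between 3435 and 5005 in the 3 WT mice and untreated replicate 1 and to 0 in the other 5 mice, among them all 3 treated mice. Sex and group therefore cannot be told apart between treated and WT mice. Ppp1r1b (DARPP-32), a protein of striatal projection neurons, had means of 2096 CPM in WT, 562 CPM in untreated and 839 CPM in treated mice. The cortical marker Slc17a7 had means of 383, 880 and 554 CPM in the same order of groups. The share of striatal tissue in each library was not tested. The summed level of 5 cortical excitatory neuron markers was 886, 375 and 204 CPM in WT replicates 1 to 3, 1016 to 1211 CPM in untreated mice and 691 to 757 CPM in treated mice, so WT replicate 1 stood apart from the other WT mice.

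The promoters of Chat, Slc18a3 and Chrm4 are printed here because these 3 genes fell in untreated mice under each alternative processing tried. Slc18a3 lies within the Chat gene on chromosome 14, on the same strand, and shares 0 exonic bases with it. The sequences end at the annotated start, run 5′ to 3′ on the strand of the gene and come from RefSeq (GRCm38.p6), which listed a promoter for 8 of the 9 genes. Capitals mark the GC box GGGCGG (or CCGCCC) and the half-site TGACG (or CGTCA) of the cyclic AMP response element, searched on both strands. Chat is at chr14:32465990-32466159 (minus strand), Slc18a3 at chr14:32464851-32465100 (minus strand) and Chrm4 at chr2:91921939-91922188 (plus strand).
Chat: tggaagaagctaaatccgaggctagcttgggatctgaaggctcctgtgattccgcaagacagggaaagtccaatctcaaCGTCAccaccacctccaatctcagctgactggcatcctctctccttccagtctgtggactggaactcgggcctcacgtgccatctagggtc
Slc18a3: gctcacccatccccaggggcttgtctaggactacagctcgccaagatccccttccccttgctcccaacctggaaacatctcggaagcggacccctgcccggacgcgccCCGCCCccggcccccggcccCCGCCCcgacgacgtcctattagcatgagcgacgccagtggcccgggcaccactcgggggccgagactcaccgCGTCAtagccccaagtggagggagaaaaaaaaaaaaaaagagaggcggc
Chrm4: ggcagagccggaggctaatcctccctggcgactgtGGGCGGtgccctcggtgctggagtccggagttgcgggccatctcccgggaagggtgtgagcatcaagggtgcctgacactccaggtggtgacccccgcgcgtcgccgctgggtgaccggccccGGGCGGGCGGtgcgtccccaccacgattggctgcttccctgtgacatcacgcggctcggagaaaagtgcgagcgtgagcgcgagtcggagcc
The 170 bases of Chat held 0 GC boxes and 1 half-site, against 19.5% and 9.86% of 32851 promoter windows of that length with at least 1 match. The 250 bases of Slc18a3 held 2 GC boxes and 1 half-site, and those of Chrm4 held 3 GC boxes, of which a pair overlap, and 0 half-sites. Among all windows of 250 bases, 32.7% held a GC box and 17.8% a half-site. A match describes the letters and not a site in use.

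The first question was how untreated HD mice differed from WT mice. Transcripts of the cholinergic neuron and of 2 receptors were lower: Chat stood at 37.6% of its WT mean, Slc18a3 at 39.4%, Chrm4 at 44.9% and Chrm1 at 72.0%. These 4 genes fell at an adjusted p under 0.05 in edgeR's test of all 9 libraries, in which none of the 9 genes rose. Rules without adjustment were also counted, since the results and the methods of the study state different ones. Under that of the results, an unadjusted P under 0.05 with a 2-fold change, 4 were counted (Chat, Slc18a3, Chrm4 and Chrm5), against 8.16% of all tested genes. Under that of the methods, an unadjusted P under 0.01 with a 2-fold change, the same 4 were counted, against 4.86%. Across all tested genes 10.7% were called, 6.1% as lower and 4.58% as higher. The median log2 fold change was −0.75 over the 9 genes and 0.02 over all tested genes. The 3 WT and 3 untreated values did not overlap for 6 genes, all lower in untreated mice, against 15.1% of all tested genes that were lower without overlap. In bulk tissue, fewer cells of a type and less RNA per cell cannot be told apart.

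Chat, which encodes choline acetyltransferase, was counted at 13.9, 22.9 and 18.7 CPM in WT replicates 1 to 3. Untreated mice had 6.31, 8.33 and 6.25 CPM, and treated mice had 8.79, 10.2 and 11 CPM. Every untreated mouse lay below every treated mouse, and every treated mouse lay below every WT mouse. The log2 fold change against WT was −1.41 ± 0.20 (SE, n = 3 per group) in untreated mice with an adjusted p of 0.00364, and −0.89 ± 0.20 in treated mice with an adjusted p of 0.0405. Between treated and untreated mice it was 0.52 ± 0.20, with an unadjusted P of 0.0256 and an adjusted p of 0.886. The call against WT in treated mice was lost without WT replicate 2 or 3, without untreated replicate 1 or 2 and without any single treated mouse, with adjusted p from 0.0529 to 0.152.

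Slc18a3 was counted at 7.59, 11.6 and 10.2 CPM in WT, 4.14, 3.66 and 3.81 CPM in untreated and 6.53, 6.69 and 6.78 CPM in treated mice. The 3 groups did not overlap, with treated mice between the others and closely grouped. Untreated mice had a log2 fold change of −1.34 ± 0.17 (SE) against WT, with an adjusted p of 0.00214. In treated mice it was −0.56 ± 0.17, and the adjusted p of 0.0975 missed the threshold, whereas DESeq2 called it (adjusted p = 0.0444). Treated mice were 1.72-fold above untreated mice (log2 0.78 ± 0.17, unadjusted P = 0.00109), the 25th smallest P of the 19463 genes, with an adjusted p of 0.736. DESeq2 alone called the difference between the HD groups, with an adjusted p of 0.0376.

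Slc5a7, the choline transporter, was counted at 18.9, 19.2 and 30.1 CPM in WT mice and 13.0, 16.7 and 11 CPM in untreated mice. Treated mice had 16.4, 18.2 and 21.8 CPM, which overlapped with both groups. Untreated mice all lay below WT mice, with a log2 fold change of −0.75 ± 0.22 (SE) that missed the threshold (unadjusted P = 0.00684, adjusted p = 0.0576). Without WT replicate 1 the adjusted p was 0.0427, and DESeq2 gave an adjusted p of 0.00911. The value in treated mice was −0.28 ± 0.22 against WT, with an adjusted p of 0.497.

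Ache, the acetylcholine-degrading enzyme, is also made by cells that receive acetylcholine, so its RNA is no marker of cholinergic neurons alone. It was counted at 70.5, 87.5 and 74.7 CPM in WT, 60.5, 68.0 and 78.3 CPM in untreated and 70.0, 69.4 and 76.1 CPM in treated mice. The groups overlapped in all 3 comparisons. Against WT the log2 fold change was −0.17 ± 0.11 (SE) in untreated and −0.11 ± 0.11 in treated mice, with adjusted p of 0.340 and 0.601.

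**Figure D1:**
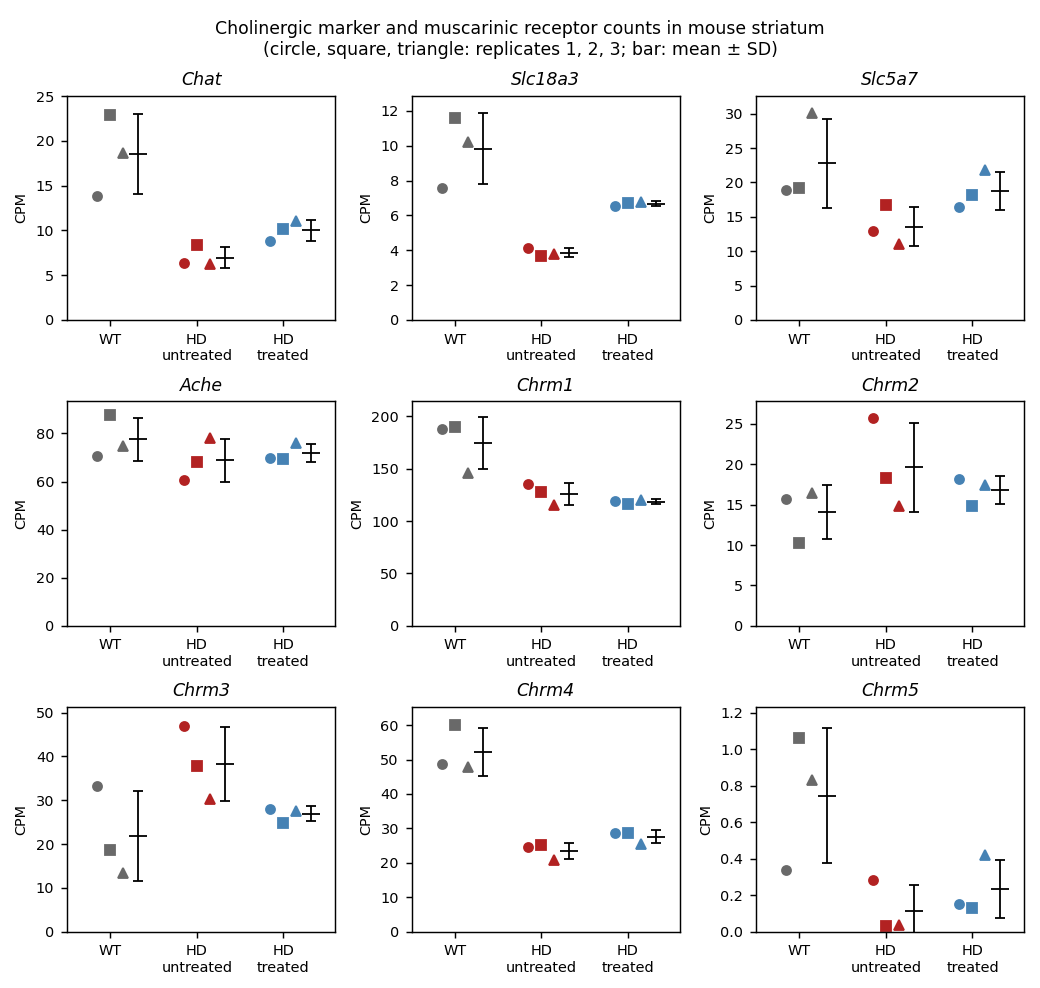
Level of each of the 9 genes in CPM (vertical axes, linear from 0) in 3 WT, 3 untreated HD and 3 treated HD mice. Circles, squares and triangles are replicates 1, 2 and 3, and bars give the mean ± SD, cut at 0 for Chrm5. Chat and Slc18a3 separate all 3 groups, Chrm4 drops from 47.8 to 60.1 CPM in WT to 20.8 to 28.7 CPM in both HD groups, and Ache overlaps throughout.

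Within a library, the ratio of 2 genes does not depend on library size. The mean log2 ratio of Slc18a3 to Chat counts was −0.91 ± 0.06 (SD, n = 3) in WT mice, −0.84 ± 0.31 in the untreated group and −0.58 ± 0.14 in the treated group. Both genes of the locus therefore stood lower by similar amounts in untreated mice, whose ratios overlapped with WT. The log2 ratio of Slc5a7 to Chat was 0.29 ± 0.49 in WT mice, 0.95 ± 0.12 in the untreated group and 0.90 ± 0.07 in the treated group, higher in every HD mouse than in every WT mouse. That of Chat to Ache was −2.09 ± 0.22 in WT mice, −3.31 ± 0.31 in the untreated group and −2.85 ± 0.13 in the treated group, without overlap between any groups. Among 15 such comparisons, the two-sided exact permutation test reached its smallest possible p of 0.1 wherever groups did not overlap (adjusted p = 0.125), so no ratio could pass a threshold of 0.05.

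Among the receptors, Chrm4 showed the clearest change. It was counted at 48.6, 60.1 and 47.8 CPM in WT, 24.5, 25.1 and 20.8 CPM in untreated and 28.6, 28.7 and 25.5 CPM in treated mice. All 6 HD mice lay below all WT mice, and every treated mouse lay above every untreated mouse by a small margin. Its log2 fold change was −1.15 ± 0.12 (SE) in untreated mice, with an adjusted p of 0.000828, and −0.92 ± 0.12 in treated mice, with an adjusted p of 0.00451. Between treated and untreated mice it was 0.24 ± 0.12 (unadjusted P = 0.0748, adjusted p = 0.901). In the annotation used here (GENCODE M21) the Chrm4 and Chrm5 models hold 1440 and 1599 exonic bases with 3 bases outside the coding sequence, and these libraries read the 3′ ends of transcripts, so levels were not compared between genes.

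Chrm1, which raises the excitability of projection neurons, was counted at 188, 190 and 146 CPM in WT and 135, 128 and 115 CPM in untreated mice. Treated mice had 119, 116 and 120 CPM. Both HD groups lay below WT without overlap and overlapped with each other. The fitted log2 values against WT were −0.47 ± 0.11 (SE) for the untreated and −0.56 ± 0.11 for the treated group, with adjusted p of 0.0245 and 0.0225. Chrm1 was the only one of the 9 genes whose treated mean did not lie between the WT and untreated means. In untreated mice its call was lost without WT replicate 2 (adjusted p = 0.0778), untreated replicate 2 (adjusted p = 0.0585) or untreated replicate 3 (adjusted p = 0.0737), in a fit of the compared groups alone (adjusted p = 0.0790) and with the Y-linked share as a covariate (adjusted p = 0.155). In treated mice it was lost without WT replicate 2 (adjusted p = 0.0807) or any single treated mouse (adjusted p up to 0.116), and with the covariate (adjusted p = 0.462).

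Chrm3 was the receptor with the highest values in untreated mice relative to WT. It was counted at 33.3, 18.7 and 13.5 CPM in WT, 47.0, 37.7 and 30.2 CPM in untreated and 28.1, 24.9 and 27.6 CPM in treated mice. WT replicate 1 overlapped with the untreated mice, whereas each treated mouse lay below each untreated mouse. Against WT the log2 fold change was 0.81 ± 0.29 (SE) in untreated mice, with an unadjusted P of 0.0187 and an adjusted p of 0.0993, and 0.30 ± 0.29 in treated mice, with an adjusted p of 0.588. Without WT replicate 1 the adjusted p in untreated mice was 0.0068, and with the replicate number as a block it was 0.0390. DESeq2 called Chrm3 higher in untreated mice (adjusted p = 0.0218). Chrm3 followed the order of the summed cortical markers in the WT mice (886, 375 and 204 CPM), and the part of cortical tissue in its values was not tested.

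Chrm2, the other Gi-coupled receptor, was counted at 15.7, 10.3 and 16.4 CPM in WT, 25.7, 18.3 and 14.8 CPM in untreated and 18.2, 14.9 and 17.4 CPM in treated mice. The groups overlapped in all 3 comparisons, with log2 fold changes against WT of 0.47 ± 0.22 (SE) in untreated and 0.25 ± 0.22 in treated mice (adjusted p = 0.200 and 0.564). Chrm5, which in the brain is best known from dopamine neurons of the midbrain, was close to the limit of detection. Its raw counts were 9, 29 and 25 for WT, 8, 1 and 1 for the untreated group and 5, 4 and 13 for the treated group. Summed over each group these were 63, 10 and 22 counts. The fitted log2 fold change of −2.66 ± 0.81 (SE) in untreated mice missed the threshold (unadjusted P = 0.00858, adjusted p = 0.0646), as did −1.65 ± 0.73 in treated mice (adjusted p = 0.230). DESeq2 called Chrm5 lower in untreated mice (adjusted p = 0.0331).

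The ratio between receptors within a library also differed by group. The mean log2 ratio of Chrm4 to Chrm1 counts was −1.74 ± 0.18 (SD, n = 3) in WT mice, −2.43 ± 0.06 in the untreated group and −2.10 ± 0.12 in the treated group, and no groups overlapped. The log2 ratio of Chrm4 to Chrm3 was 1.35 ± 0.70 in WT mice, −0.69 ± 0.22 in the untreated group and 0.04 ± 0.16 in the treated group, again without overlap. Both belong to the 15 ratio comparisons above, with exact permutation p of 0.1 at best.

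The second question was how treated mice compared with the same WT mice. Chat, Chrm1 and Chrm4 were called lower and none of the 9 genes higher, against 3.69% of all tested genes called in either direction and with 2.78% called lower and 0.904% higher. At an unadjusted P under 0.05 with a 2-fold change 1 gene was counted (Chrm5), against 5.22%, and at an unadjusted P under 0.01 with a 2-fold change 0 were, against 2.78%. The median log2 fold change was −0.56 over the 9 genes and 0.00378 over all tested genes. Values did not overlap for 4 genes (Chat, Slc18a3, Chrm1 and Chrm4), all lower in treated mice, against 15.1% of all tested genes lower without overlap. Relative to WT means, treated mice stood at 54.0% for Chat, 68.0% for Slc18a3, 82.5% for Slc5a7, 92.6% for Ache, 67.8% for Chrm1, 52.9% for Chrm4, 119% for Chrm2 and 123% for Chrm3. Because both HD groups were compared with the same 3 WT mice, the likeness of their changes is not independent evidence. With the share of Y-linked counts as a covariate, none of the 9 genes was called between treated and WT mice by edgeR, and 0.0257% of all genes were. At an unadjusted P under 0.05 this fit held 5 of the 9 (Chrm1, Chrm2, Chrm4, Chat and Ache), against 9.6% of all tested genes.

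The third question was what the HTT gRNAs changed in HD mice that all received CasRx. No gene, among the 9 or in the whole table, passed an adjusted p of 0.05 in edgeR's quasi-likelihood test (0% called). At an unadjusted P under 0.05, Chat and Slc18a3 were higher in treated mice, and 5.5% of all tested genes passed in either direction. Both rules of the study counted 0 of the 9 genes, against 0.771% of all tested genes at an unadjusted P under 0.05 and 0.17% at one under 0.01. DESeq2 called 1 of the 9 genes, Slc18a3, and 0.247% of all genes. Values did not overlap for 4 genes, with Chat, Slc18a3 and Chrm4 higher and Chrm3 lower in treated mice, against 15.8% of all tested genes without overlap (6.92% higher and 8.83% lower). For 8 of the 9 genes the treated mean lay between the means of WT and untreated mice, all but Chrm1.

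**Figure D2:**
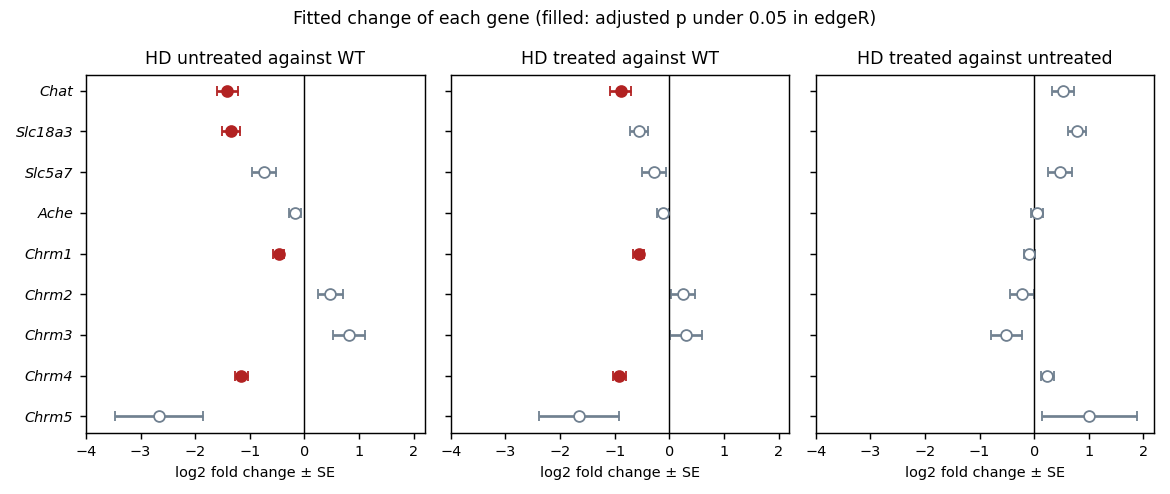
Fitted log2 fold change ± SE (horizontal axis) of the 9 genes in the 3 comparisons, from edgeR's fit of all 9 libraries. Filled red points have an adjusted p under 0.05. Chat, Slc18a3, Chrm1 and Chrm4 are filled for untreated against WT, Chat, Chrm1 and Chrm4 for treated against WT, and none for treated against untreated, where Slc18a3 has the smallest P.

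Libraries of like sex could be compared for part of the design. Among the 4 libraries with Y-linked counts, untreated replicate 1 had lower values than each of the 3 WT mice for Chat (6.31 against 13.9 to 22.9 CPM), Slc18a3 (4.14 against 7.59 to 11.6 CPM), Chrm4 (24.5 against 47.8 to 60.1 CPM) and Chrm1 (135 against 146 to 190 CPM). Among the 5 libraries without them, the 3 treated mice had 6.53 to 6.78 CPM of Slc18a3 against 3.66 and 3.81 CPM in untreated replicates 2 and 3, and 8.79 to 11 CPM of Chat against 8.33 and 6.25 CPM. No WT mouse could be set beside a treated mouse in this way.

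The rest of the acetylcholine pathway was described with lists drawn up with earlier results of these data known. Of 67 further genes listed, 61 were tested, and 16 fell in untreated mice, 9 in treated mice and 0 between treated and untreated mice. Among all tested genes 6.1% fell in untreated and 2.78% in treated mice, and 0% were called between the HD groups. These shares also stand beside the lists below. None of the 61 rose in any of the 3 comparisons in edgeR's test of all 9 libraries. Between treated and untreated mice 12 of the 61 had an unadjusted P under 0.05, against 5.5% of all tested genes. DESeq2 called 3 of the 61 in that comparison and 48 of all 19463 genes. Without WT replicate 1, 17 fell and 2 rose in untreated mice and 14 fell and 1 rose in treated mice. That fit called 2584 and 1092 of 20002 genes in either direction. DESeq2 called 20 lower and 3 higher for the untreated group, 14 lower and 2 higher for the treated group. Of all 19463 genes it called 3473 and 1946 in either direction. With the Y-linked share as a covariate, 12 fell in untreated mice and 0 were called in treated mice (16 at an unadjusted P under 0.05). Over all 19463 genes this fit called 457 and 5, and 9.6% had an unadjusted P under 0.05 in treated mice.

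Genes that mark the identity of cholinergic interneurons were lower alongside Chat. In untreated mice 6 of 10 fell, against 6.1% of all tested genes. Among them were Lhx8 and Nkx2-1, transcription factors that specify these cells. Slc10a4 and Slc17a8, vesicular transporters of cholinergic terminals, and Tacr1, the substance P receptor, also fell. The median log2 fold change of the list was −1.15. Lhx8 was counted at 4.12, 6.57 and 6.28 CPM in WT, 2.14, 2.55 and 2.0 CPM in untreated and 4.26, 3.76 and 5.07 CPM in treated mice. Treated mice overlapped with WT mice for Lhx8 and lay above every untreated mouse. Its log2 fold change was −1.34 ± 0.23 (SE) in untreated mice (adjusted p = 0.00832) and −0.38 ± 0.22 in treated mice (adjusted p = 0.361). Tacr1 fell by 1.25 on the log2 scale in untreated mice, from a mean of 24.7 to 10.4 CPM, with an adjusted p of 0.00343. With each of the 9 mice left out in turn, the calls of Lhx8, Tacr1 and Nkx2-1 held, while that of Slc10a4 was lost 8 times (adjusted p up to 0.138) and that of Slc17a8 6 times (adjusted p up to 0.0899).

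In treated mice 0 of the 10 identity genes were called against WT by edgeR, 1 was by DESeq2 (Tacr1), 3 had an unadjusted P under 0.05, and the median log2 fold change was −0.48. Without WT replicate 1, edgeR called 3 (Nkx2-1, Slc10a4 and Tacr1) in treated mice and 7 in untreated mice, with Isl1 added. Between treated and untreated mice 0 were called by edgeR or DESeq2. At an unadjusted P under 0.05 there were 4, all with higher values in treated mice, against 5.5% of all tested genes. In edgeR's quasi-likelihood test these included Lhx8 (log2 fold change 0.97, unadjusted P = 0.00176), Tacr1 (0.59, 0.00679) and Nkx2-1 (1.02, 0.0106). The median of the list was 0.59, and that over all tested genes was −0.01.

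**Figure D3:**
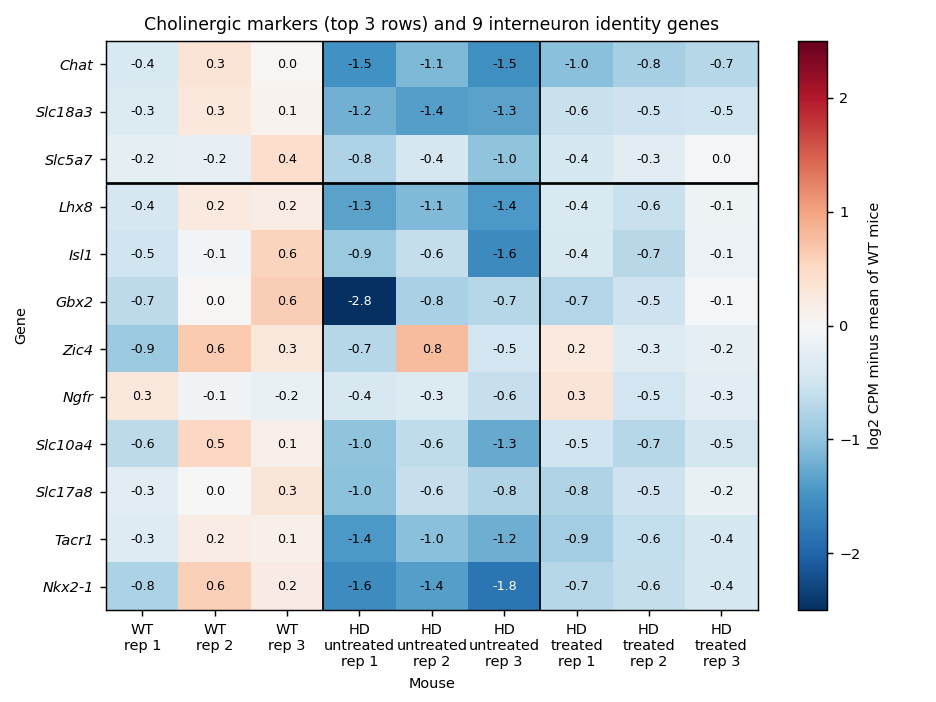
Log2 CPM of each gene minus its mean in WT mice, for Chat, Slc18a3 and Slc5a7 (above the line) and 9 interneuron identity genes (below), with 1 column per mouse. Blue is below the WT mean and red above it, the numbers give the value, and the darkest blue also covers a value beyond the scale (Gbx2 in untreated replicate 1). For Chat and Slc18a3 each treated value lies between those of the untreated and the WT mice. Of the 9 identity genes only Tacr1 shows the same order. WT and treated values overlap for the other identity genes and for Slc5a7.

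No subunit gene of the nicotinic receptors, the ion channels through which acetylcholine excites cells, was called with all 9 libraries. Of 16 listed 10 were tested, and 0 were called in any comparison by edgeR or by DESeq2. At an unadjusted P under 0.05 there were 1 in untreated mice against WT, 0 in treated mice against WT and 1 between treated and untreated mice. In untreated mice that was Chrnb3, at 0.598 CPM in WT and 1.35 CPM in untreated mice (log2 fold change 1.17, adjusted p = 0.0626). Chrnb2 and Chrna4, whose proteins form the most common brain receptor, had means of 70.5 and 30.7 CPM in WT and 68.6 and 31.5 CPM in untreated mice. Of 7 nicotinic receptor chaperones and prototoxins 0 were called by edgeR, with 1 at an unadjusted P under 0.05 in each comparison. In untreated mice this was Lypd1 (log2 fold change −0.53, adjusted p = 0.105). DESeq2 called 1 as lower in each comparison, Lypd1 in untreated mice and Lynx1 in treated mice against WT and against untreated mice. With WT replicate 1 left out, edgeR called Chrna3 and Lypd6 higher in untreated mice and Lypd6 in treated mice.

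Among 10 genes of choline supply and of the proteins that hold cholinesterases in place, only Prima1 was called by edgeR. DESeq2 also called Bche, a cholinesterase gene, higher in treated mice than in WT. At an unadjusted P under 0.05, 3 of the 10 were higher and 2 lower in treated mice against WT. Prima1 anchors acetylcholinesterase in the membrane of brain cells. It was counted at 12.7, 17.2 and 14.1 CPM in WT, 5.09, 6.82 and 7.41 CPM in untreated and 9.19, 8.43 and 7.30 CPM in treated mice. All HD mice lay below all WT mice. Its log2 fold change was −1.19 ± 0.18 (SE) in untreated mice (adjusted p = 0.00507) and −0.82 ± 0.18 in treated mice (adjusted p = 0.0388), whereas Ache itself was not called in either. The call in treated mice was lost in 6 of the 9 fits that leave out 1 mouse (adjusted p up to 0.144).

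Signalling genes downstream of the receptors differed by branch. The Gi and Golf branch is that through which Chrm4 and dopamine act on cyclic AMP. In it 8 of 13 genes fell in untreated mice and 6 in treated mice. Over all tested genes 6.1% and 2.78% fell. The median log2 fold changes of the list were −0.61 and −0.42. At an unadjusted P under 0.05, 2 of the 13 were higher in each HD group than in WT. Gnai1, which encodes a Gi α subunit, was called higher in both HD groups by DESeq2. Gnal (the Golf α subunit), Adcy5 (the main striatal adenylyl cyclase), Gng7, Rgs4, Rgs9 and Gnb5 fell in both, and Gnao1 and Rgs8 were called in untreated mice and not in treated mice (adjusted p = 0.236 and 0.0570). When WT replicate 1 was left out, Rgs8 was called in both HD groups and Gnao1 in neither. The call of Gnao1 was lost with each of the 9 mice left out (adjusted p up to 0.132), and in treated mice those of Gnal and Gng7 were lost in 5 of the 9 fits (adjusted p up to 0.118 and 0.123). Rgs9, a regulator that ends Gi signals in projection neurons, had means of 509 CPM in WT, 147 CPM in untreated and 229 CPM in treated mice, with log2 fold changes of −1.79 (adjusted p = 0.000226) and −1.16 (adjusted p = 0.00324). Its partner Gnb5 had means of 263, 128 and 153 CPM, with log2 fold changes of −1.04 (adjusted p = 0.000343) and −0.78 (adjusted p = 0.00324). Between treated and untreated mice 0 of the 13 were called by edgeR and 2 by DESeq2 (Gng7 and Rgs9). At an unadjusted P under 0.05 there were 6, all higher in treated mice, against 5.5% of all tested genes.

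In the Gq branch, through which Chrm1 and Chrm3 act, 1 of 11 genes fell in untreated mice and 2 in treated mice. Itpr1, the calcium release channel of the endoplasmic reticulum, was counted at 1027, 1131 and 1096 CPM in WT, 673, 655 and 642 CPM in untreated and 700.2, 614 and 658 CPM in treated mice. Its log2 fold change was −0.72 ± 0.08 (SE) in both HD groups, with adjusted p of 0.00103 and 0.00324, and the HD groups overlapped with each other.

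Most markers of the projection neurons that carry Chrm1 and Chrm4 were also lower in both HD groups than in WT. In treated mice 1 of the 5 direct-pathway markers was higher than in WT at an unadjusted P under 0.05. Direct-pathway projection neuron markers fell for 4 of 5 genes in untreated and 2 of 5 in treated mice, those of the indirect pathway for 4 of 4 tested genes in both groups, and those of both pathways for 5 of 5 and 3 of 5. Their summed levels were 446 to 664 CPM, 1234 to 1753 CPM and 3732 to 4831 CPM in WT mice. Untreated mice had 247 to 278 CPM, 290 to 387 CPM and 1292 to 1541 CPM, and treated mice had 365 to 411 CPM, 525 to 568 CPM and 1911 to 2013 CPM. Drd1, the dopamine receptor of the direct pathway that shares its cells with Chrm4, had means of 194 CPM in WT, 62.9 CPM in untreated and 94.8 CPM in treated mice, and its call in treated mice was lost without any single treated mouse (adjusted p up to 0.0832). Among the calls of these markers, the least stable in untreated mice was lost in 8 of the 9 fits that leave out 1 mouse (adjusted p up to 0.135). The least stable in treated mice was lost in 7 (adjusted p up to 0.157). With the Y-linked share as a covariate, edgeR called 0 of these markers in treated mice and 5 of all 19463 genes. Each treated mouse had higher sums than each untreated mouse, whereas Chrm1 overlapped between the HD groups. The part of projection neuron RNA in the values of Chrm1, Chrm4 and the Gi branch was not tested. Of 6 markers of striatal GABA interneurons, Nos1 fell in untreated mice (log2 fold change −0.53, adjusted p = 0.0373, a call lost in 8 of the 9 fits that leave out 1 mouse), 0 were called in treated mice by edgeR with 1 at an unadjusted P under 0.05 and 1 called by DESeq2 (also Nos1), and the median log2 fold change was 0.02 in untreated mice. The pan-neuronal gene Rbfox3 (NeuN) had means of 244 CPM in WT, 236 CPM in untreated and 215 CPM in treated mice, with an adjusted p of 0.777 for untreated against WT.

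Cortical and choroid plexus markers also varied between libraries. Of the 5 cortical excitatory neuron markers, Neurod2 rose in untreated mice (adjusted p = 0.0360, and up to 0.118 with 1 mouse left out), and each of the 5 had an unadjusted P under 0.05 there. In treated mice 0 were called by edgeR or DESeq2 and 0 had an unadjusted P under 0.05. All 5 were called as higher in both HD groups without WT replicate 1. WT replicate 1 had 886 CPM of these markers, 13.9 CPM of Chat and 48.6 CPM of Chrm4. Treated mice had 691 to 757 CPM of the markers, 8.79 to 11 CPM of Chat and 25.5 to 28.7 CPM of Chrm4. Untreated mice had both the highest cortical sums and the lowest Chat and Chrm4 values, and the part of cortical tissue in these differences was not tested. Without WT replicate 1, 7 of the 9 genes were called in untreated mice and 4 in treated mice, against 12.9% and 5.46% of all genes. Choroid plexus markers summed to 61.5, 3635 and 1160 CPM in WT, 31.0 to 178 CPM in untreated and 35.5 to 1213 CPM in treated mice, and the levels of Chat in WT replicates 2 and 3, which had the larger sums, were above that in WT replicate 1.

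**Figure D4:**
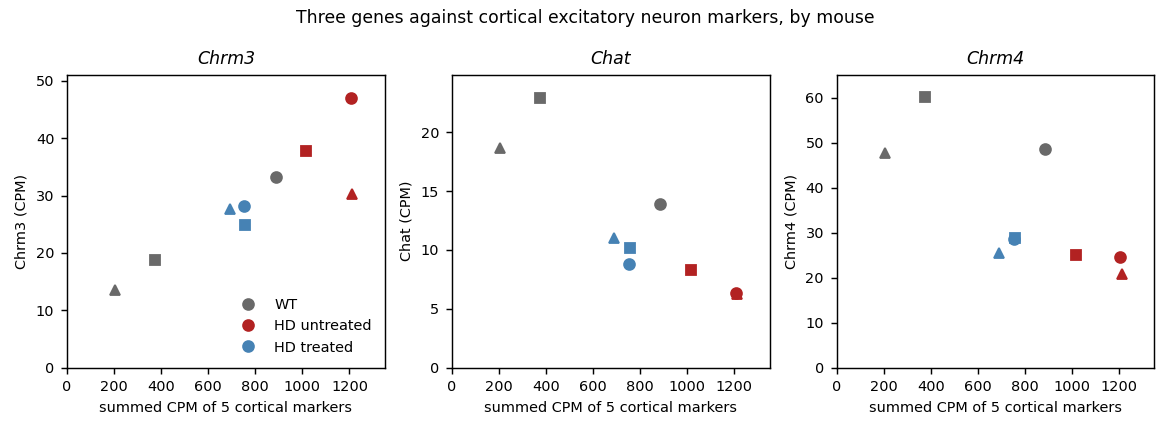
Levels of Chrm3, Chat and Chrm4 (vertical axes, CPM) against the summed CPM of 5 cortical excitatory neuron markers (horizontal axis), with 1 point per mouse, coloured by group (circles, squares and triangles are replicates 1, 2 and 3). WT replicate 1, at 886 CPM of cortical markers, lies to the right of the 3 treated mice and above them for Chat and Chrm4, and the WT mice rise with the cortical sum for Chrm3.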

How the data were processed

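The authors prepared 3′ mRNA libraries from mouse striatum with an oligo-dT primer and deposited raw counts per Ensembl gene, without normalization. The study's methods name STAR for alignment and quantification, whereas the submitters' processing notes name Trimmomatic 0.39, FastQC 0.11.9, HISAT2 2.2.1 and featureCounts 2.0.1. The mouse genome build and the strand setting are not given in the sources used here, so for genes with antisense transcripts over their exons (Chrm1, Chrm2 and Ache) reads of both strands may be mixed. Pig counts were not used here. Gene names, chromosomes and overlaps came from GENCODE M21, which held 94.08% of the mouse IDs.

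The analysis used R 4.3.3, edgeR 4.0.16 and limma 3.58.1. After filterByExpr with the group in the design and TMM scaling, 1 glmQLFit model over the 9 libraries (6 residual degrees of freedom) gave all 3 comparisons by glmQLFTest, with Benjamini-Hochberg adjustment over 19463 genes, and a gene was called at an adjusted p under 0.05. The study's rule of an unadjusted P under 0.05 (results) or 0.01 (methods) with a 2-fold change was counted as an alternative, the second chosen after seeing the data. SEs are of the log2 fold change. Log2 CPM used a prior count of 2. Ratios within libraries were compared by two-sided exact permutation tests in Python 3.11.15 (scipy 1.17.1), and figures were drawn with matplotlib 3.10.9. Total counts of 27184356 to 32102121 per library set the precision, and reads were not independent molecules.

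Replicate numbers come from the labels, and same-numbered mice are different animals as far as the labels say. Deviations from group means correlated by −0.0805 to 0.236 between same-numbered mice, so the number was not taken to pair them.

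The members and gene lists were chosen with earlier results of these data known. Text names the 9 genes, the 2 genes of each pathway list with the smallest P in untreated mice, the first tested gene of marker lists, the 3 genes most like Chat, Chrm1 and Chrm4 in pattern, and any gene covered by a count of 5 or fewer, except some genes that are counted in their lists but not reported here. Genes named beyond that (Chrna4, Chrnb2, the identity genes, the signalling genes called in the Gi branch and the Htt check) were chosen after their values were seen. Alternatives were no TMM factors, RLE size factors, no filter, at least 10 counts in every library, only the compared groups, a replicate block, the Y-linked share as a covariate, DESeq2 1.42.0, a prior count of 0.5, the study's rules and each mouse left out in turn. The steps were tested on simulated data.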

Additional observations from a re-analysis of the deposited data

How the results depend on the processing

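In untreated mice Chat, Chrm4 and Slc18a3 were called under all 17 alternative fits and Chrm1 under 12. The 4 genes called there became 7 with DESeq2 and 3 to 7 with each mouse left out, while the share of all genes called went from 10.7% to 17.8% with DESeq2 and to between 4.57% and 12.9% with a mouse left out. DESeq2 added Slc5a7 (adjusted p = 0.00911) and Chrm5 (adjusted p = 0.0331) as lower and Chrm3 (adjusted p = 0.0218) as higher. Among the fits with a mouse left out, 7 came without WT replicate 1. There Chrm3 (adjusted p = 0.0068), Chrm5 (adjusted p = 0.0464) and Slc5a7 (adjusted p = 0.0427) were added. Without untreated replicate 1, Chrm5 was also called (adjusted p = 0.0295). With a replicate block 5 were called in untreated mice, with Chrm3 added (adjusted p = 0.0390), 3 in treated mice and 0 between treated and untreated mice, and the block changed no other call among the 9 genes. In treated mice the 3 genes called became 0 with the Y-linked share as a covariate, 1 at an unadjusted P under 0.05 with a 2-fold change (Chrm5), 0 at one under 0.01 with a 2-fold change and 1 to 4 with each mouse left out. They were 1 (Chrm4) without WT replicate 2 or any single treated mouse, and 4 without WT replicate 1, with Slc18a3 added (adjusted p = 0.0251). Chrm4 was called there under 16 of 17 alternative fits (adjusted p = 0.198 with the covariate) and Chat under 7. Chat was lost without TMM factors (adjusted p = 0.0589), with no filter (0.0795), and without WT replicate 2 (0.137), WT replicate 3 (0.0768), untreated replicate 1 (0.0536), untreated replicate 2 (0.0529) or treated replicates 1 to 3 (0.152, 0.15 and 0.109). Between treated and untreated mice DESeq2 called 1 gene and every mouse left out gave 0 to 0. Directions reversed for uncalled values only. The log2 fold change between treated and untreated mice became 0.049 for Chrm2 and −0.037 for Ache with the covariate. With each mouse left out it ranged from −0.39 to 0.027 for Chrm2 and from −0.019 to 0.16 for Ache, with the reversed ends without untreated replicate 1. That of Chrm5 in treated mice against WT became 0.39 with the covariate. Chrm5 could not be tested with at least 10 counts in every library and had 10 counts over 3 untreated mice. The cause of these changes was not tested.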

Other observations

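Glial, vascular and immune markers were measured beside the cholinergic genes. Of 5 T cell markers Cd3e, Cd3g and Cd8a rose in untreated mice, with Cd3g and Cd3d at 0 counts in all WT mice. Untreated replicate 3 stood apart, with a summed T cell level of 59.6 CPM against 12.9 CPM in each of the other untreated mice, 1.20 to 7.52 CPM in WT and 8.43 to 15.8 CPM in treated mice. The call of Cd3e was lost without untreated replicate 3, any WT mouse or any treated mouse (adjusted p up to 0.119), that of Cd3g without WT replicate 2 or 3 or any treated mouse (up to 0.0886) and that of Cd8a without WT replicate 2 or 3 (up to 0.0804). Of the 5 markers 0 were called in treated mice by edgeR, with 4 at an unadjusted P under 0.05 and 3 called by DESeq2. Among 4 tested B cell and plasma cell markers Jchain and Mzb1 rose in both HD groups and Cd79a in treated mice, where the call of Cd79a was lost in 7 and that of Mzb1 in 4 of the 9 fits that leave out 1 mouse. In untreated mice that of Mzb1 was lost without WT replicate 2 or untreated replicate 3. Cldn5, a tight junction gene of endothelial cells, rose in both, by 0.79 and 0.94 on the log2 scale (adjusted p = 0.00708 and 0.00563). Of 5 oligodendrocyte markers 1 fell in untreated mice, and Clic6 fell there among 6 choroid plexus markers, a call lost in 6 of the 9 fits that leave out 1 mouse (adjusted p up to 0.126). None of the 5 astrocyte, 5 microglia, 3 thalamic, 5 red blood cell and 5 pan-neuronal markers was called by edgeR against WT in either HD group, with 2, 3, 0, 0 and 2 at an unadjusted P under 0.05 in untreated mice and 2, 4, 0, 5 and 1 in treated mice. By DESeq2, Gfap, Cx3cr1 and Snap25 were among those called higher in untreated mice, and Aqp4, Gfap and Cx3cr1 in treated mice. The summed microglial level was 271 to 300 CPM in WT, 314 to 621 CPM in untreated and 392 to 457 CPM in treated mice.

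The genes whose log2 CPM was most like that of a member over the 9 libraries, among 12396 genes with a mean of at least 5 CPM, are given by Pearson's r as a description. The 9 libraries form 3 groups, so r carries the group differences. For Chat these were Lrrc1 (r = 0.993), Ass1 (r = 0.991) and Osbp (r = 0.988). For Chrm1 they were Hipk4 (r = 0.983), Cntnap1 (r = 0.982) and Ercc1 (r = 0.982). For Chrm4 they were Dbp (r = 0.995), Zfyve28 (r = 0.995) and Dpf1 (r = 0.994). Ass1, which makes argininosuccinate, fell by 0.81 on the log2 scale in untreated mice (adjusted p = 0.00401), and Dbp, a clock-controlled transcription factor, fell by 2.04 (adjusted p = 0.000343).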
